A study of Homo sapiens with 6 samples.

Results

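The cyclins, the cyclin-dependent kinases (CDKs), the CDK inhibitors and the phosphatases and kinases that switch CDKs on and off were followed as 39 genes chosen by symbol. All 39 were found among the 58735 genes of the deposited table. RNA came from HGC-27, a cell line established from an undifferentiated gastric carcinoma and labelled as wild type, grown in RPMI 1640 with serum. One group was transfected with pSIH-H1-Puro-shACAT2, which expresses a short hairpin RNA against ACAT2, and the reference group with the control vector pSIH-H1-Puro-shNC. Each was transfected for 24 h, selected with puromycin for 7 days, and sequenced as 3 libraries (shACAT2-1 to shACAT2-3 and shNC-1 to shNC-3). Both groups thus carried a vector and had passed the same selection, and untransfected cells were not among the samples. The labels do not name the hairpin sequence or say whether the selected cells were clonal.

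Cyclins are the regulatory subunits that activate CDKs. D-type cyclins with CDK4 or CDK6, and then E-type cyclins with CDK2, drive cells from G1 into S phase, while cyclins A and B with CDK2 and CDK1 act in S phase and mitosis. INK4 proteins block CDK4 and CDK6, CIP/KIP proteins bind cyclin-CDK complexes more widely, WEE1 and PKMYT1 hold CDK1 inactive by phosphorylation, and CDC25 phosphatases remove that phosphate. A second branch of the family, with cyclins K, L and T and CDK8, CDK9, CDK12 and CDK13, acts on RNA polymerase II and RNA processing.

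Libraries held 14086416 to 16067486 fragments on annotated genes. Values are in FPKM, fragments per kilobase of summed exon length with a deposited scaling for each library. The targeted gene ACAT2 was at 14.2, 11.7 and 12.7 FPKM in shNC-1 to shNC-3, against 6.19, 5.46 and 6.05 FPKM in shACAT2-1 to shACAT2-3. Its log2 fold change was −1.01 with a standard error of 0.10 and a limma adjusted p of 0.0059, which was 0.0512 without shNC-3. The pair shNC-2 and shNC-3 differed less than any other pair within a group, with a chi-square per gene of 1.77 against 14.6 to 56.5. Whether this pair came from separate cultures was not tested, so n counts libraries, and an SD in shNC cells may be partly technical. In shACAT2-3, 7474 genes had fragments that no other library showed, against 416 to 656 in each of the others, at a background of 0.0507 FPKM. Of 10 gastric or epithelial marker genes 1 (CDH1) reached 1 FPKM in any library, and TFF1 was at 0 in all of them. The 5 fibroblast markers together had 303 to 337 FPKM in shNC and 440 to 531 FPKM in shACAT2 libraries, with COL3A1 highest at 202 to 335 FPKM. Of these, 3 were called higher (COL1A1, DCN and LUM), COL3A1 was not called, and PDGFRA was lower without overlap at a log2 fold change of −0.43 (limma adjusted p = 0.0701, and 0.0431 with the replicate block). The 5 leukocyte markers summed to 1.16 to 1.48 and 1.42 to 1.85 FPKM, and the 4 endothelial markers to at most 0.444 FPKM. What part these differences have in the results on cyclins and CDKs was not tested.

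CDKN1A and CDKN2B, both inhibitors, rose in shACAT2 cells, and no cyclin, CDK, phosphatase or inhibitory kinase gene passed the test. Genes whose group mean reached 1 FPKM in shNC or shACAT2 cells were tested with limma on log2(FPKM + 1), and a gene was called at a Benjamini-Hochberg adjusted p below 0.05. The filter passed 37 of the 39 genes. CCNA1 and CDKN1C fell below it, and CCNG2 passed through its level in shACAT2 cells alone. Of the 37 genes, 2 were called higher and 0 lower, where 5.1% of all 13832 genes tested were called in either direction, 3.3% higher and 1.81% lower. The share of members called was thus close to that of all genes. At an unadjusted limma p below 0.05 there were 5 higher (CDKN1A, CDKN2B, CDKN2D, CDKN3 and CDC25B) and 2 lower (CCND2 and CDK12). Of all 13832 genes tested, 1768 were higher and 1485 lower at that threshold. The fit with limma-voom on the fragments called CDKN1A and CDKN2B higher and CCND2 lower. With the replicate number as block, 4 were called higher (CDKN2D and CDC25B in addition) and 2 lower (CCND2 and CDK12), where 12.5% of all genes were called. The 3 libraries of one group lay above all 3 of the other for 6 genes in the higher direction and 3 in the lower, where the share over all genes was 16.2% and 14.5%. The median log2 fold change of the 37 genes was 0.0856, and 0.075 for the 36 that passed the filter in both groups, against 0.0157 for all genes tested. Of all genes called, 64.6% were higher in shACAT2 cells, and this share was 54.4% with upper-quartile scaling and 54.9% with scaling to library size. The added 1 FPKM shrinks the fold change of a gene expressed near that level. In RNA of whole cultures, fewer cells in one phase of the cycle and less RNA per cell cannot be told apart.

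**Figure D1:**
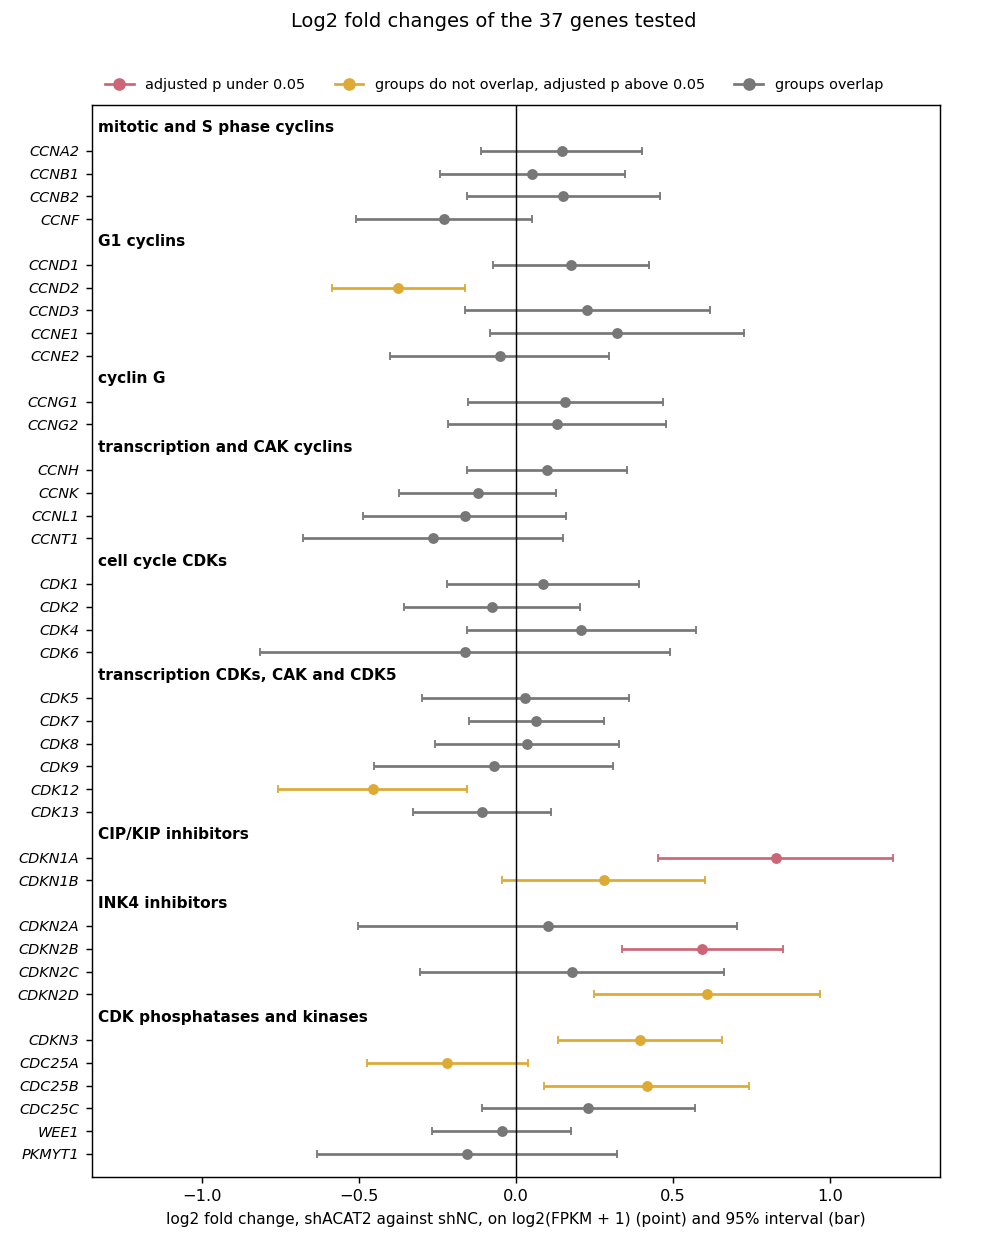
Log2 fold change of shACAT2 against shNC for the 37 genes tested, on log2(FPKM + 1), with its 95% interval from limma as a bar, grouped by role. The intervals of CDKN1A and CDKN2B, the called genes, lie above 0, and those of most cyclins and cell cycle CDKs span 0. Intervals of CDKN2D, CDKN3 and CDC25B also lie above 0 and those of CCND2 and CDK12 below 0, though none of these genes was called.

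Among the CIP/KIP inhibitors, CDKN1A rose in shACAT2 cells. CDKN1A (chr6:36676460-36687339, plus strand, coordinates here and below from GENCODE 29 on GRCh38) encodes p21, which inhibits CDK2 complexes. It was at 4.20, 3.60 and 3.40 FPKM in shNC-1 to shNC-3, against 9.37, 7.12 and 5.97 FPKM in shACAT2-1 to shACAT2-3, from 178 to 434 fragments. Every shACAT2 library was above every shNC library, with the highest value in shACAT2-1. The mean went from 3.73 ± 0.414 to 7.49 ± 1.73 FPKM (SD, n = 3), and the log2 fold change was 0.83 (95% interval 0.45 to 1.199, standard error 0.16, limma adjusted p = 0.0343). The call was lost without shNC-1 (limma adjusted p = 0.0937), shNC-2 (0.144), shNC-3 (0.153) or shACAT2-2 (0.111), while the log2 fold change lay between 0.67 and 0.96 in these fits and without the other libraries. It was also lost when the close pair shNC-2 and shNC-3 was averaged into 1 library (0.149). The exons of CDKN1A share 4.79% of their length with DINOL on the opposite strand, which was at 0 in 5 libraries and at 0.0701 FPKM in shACAT2-3.

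CDKN1B, which encodes p27, was the most abundant gene of this group at 25.4, 24.5 and 22.2 FPKM in the shNC libraries and 35.0, 27.7 and 26.0 FPKM in the shACAT2 libraries. These values also did not overlap, but the log2 fold change of 0.28 (95% interval −0.04 to 0.60) did not pass the test (limma adjusted p = 0.274). CDKN1C, which encodes p57, had 0.224 to 0.501 FPKM in shNC and 0.430 to 0.534 FPKM in shACAT2 libraries, from 9 to 22 fragments, and was not tested. Summed over the 3 genes, the level was 28.1 ± 2.12 FPKM in shNC cells, against 37.6 ± 6.56 FPKM in shACAT2 cells (SD, n = 3) without overlap. The share of CDKN1A in this sum was 13.95%, 12.7% and 13.2% in the shNC libraries and 20.9%, 20.2% and 18.4% in the shACAT2 libraries. CDKN1B still made up 78.9% ± 1.23 of it in shACAT2 cells, against 85.5% ± 1.06 in shNC cells (SD, n = 3). The family shares here and below were read for overlap and not tested. Shares of a family add up to the whole, so a higher share of one gene goes with lower shares of the others.

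Of the INK4 inhibitors, the low CDKN2B rose in shACAT2 cells, while the abundant CDKN2A and CDKN2C overlapped between groups. CDKN2B (chr9:22002903-22009363, minus strand) encodes p15, an inhibitor of CDK4 and CDK6 known as a target of TGF-beta signalling. Its level was 2.82, 3.59 and 3.23 FPKM in shNC-1 to shNC-3, against 4.98, 5.92 and 5.14 FPKM in shACAT2-1 to shACAT2-3, from 175 to 399 fragments. The groups did not overlap, and shACAT2-2 was the highest. The mean was 3.21 ± 0.385 FPKM in shNC cells, against 5.35 ± 0.499 FPKM in shACAT2 cells (SD, n = 3), with a log2 fold change of 0.59 (95% interval 0.34 to 0.85, standard error 0.11, limma adjusted p = 0.0305). The call was lost when any control library or shACAT2-2 was left out. The limma adjusted p was 0.104 without shNC-1, 0.101 without shNC-2, 0.140 without shNC-3 and 0.111 without shACAT2-2, with log2 fold changes from 0.52 to 0.66. It was 0.117 when shNC-2 and shNC-3 entered as their mean, 0.0531 with upper-quartile scaling and 0.0502 with scaling to library size.

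CDKN2D (chr19:10566462-10569059, minus strand), which encodes p19 of the INK4 family, had the second largest log2 fold change of the 37 genes but was not called. It was at 2.09, 2.13 and 1.81 FPKM in the shNC libraries and at 4.38, 3.84 and 2.70 FPKM in the shACAT2 libraries, from 47 to 100 fragments. The groups did not overlap, and shACAT2-3 was the nearest to the controls. The log2 fold change was 0.61 (95% interval 0.25 to 0.97, limma adjusted p = 0.0693), and it was called without shACAT2-3 (0.0257) and in the fit with a replicate block (0.0364).

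CDKN2A and CDKN2C, which encode p16 (with ARF from the same locus) and p18, were far more abundant and overlapped between groups. CDKN2A (chr9:21967753-21995301) was at 65.1, 52.7 and 52.4 FPKM in shNC-1 to shNC-3, against 85.6, 62.5 and 41.5 FPKM in shACAT2-1 to shACAT2-3. The shACAT2 libraries thus spanned both the highest and the lowest of the 6 values, and the log2 fold change of 0.10 had a wide interval (−0.50 to 0.70, limma adjusted p = 0.849). CDKN2C followed the same order of libraries, with 38.1, 31.9 and 30.3 FPKM against 49.7, 37.9 and 28.7 FPKM (log2 fold change 0.18, 95% interval −0.30 to 0.66, limma adjusted p = 0.649). The long non-coding gene CDKN2B-AS1 (chr9:21994778-22121097, plus strand), named here after its values were seen, spans CDKN2B on the opposite strand and reaches into CDKN2A. CDKN2B-AS1 was at 0.920, 1.28 and 1.09 FPKM in shNC and 0.501, 0.592 and 0.806 FPKM in shACAT2 libraries. It passed the filter through shNC cells alone, so no test of it is given. Its exons share 7.88% of the length of CDKN2A on the opposite strand. Of the summed INK4 level, CDKN2D made up 2.12% ± 0.221 in shNC and 3.33% ± 0.259 in shACAT2 cells (SD, n = 3), without overlap. The CDKN2B share overlapped, at 2.61%, 3.97% and 3.68% in shNC and 3.45%, 5.37% and 6.59% in shACAT2 libraries. The summed level and the shares of CDKN2A and CDKN2C overlapped too.

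**Figure D2:**
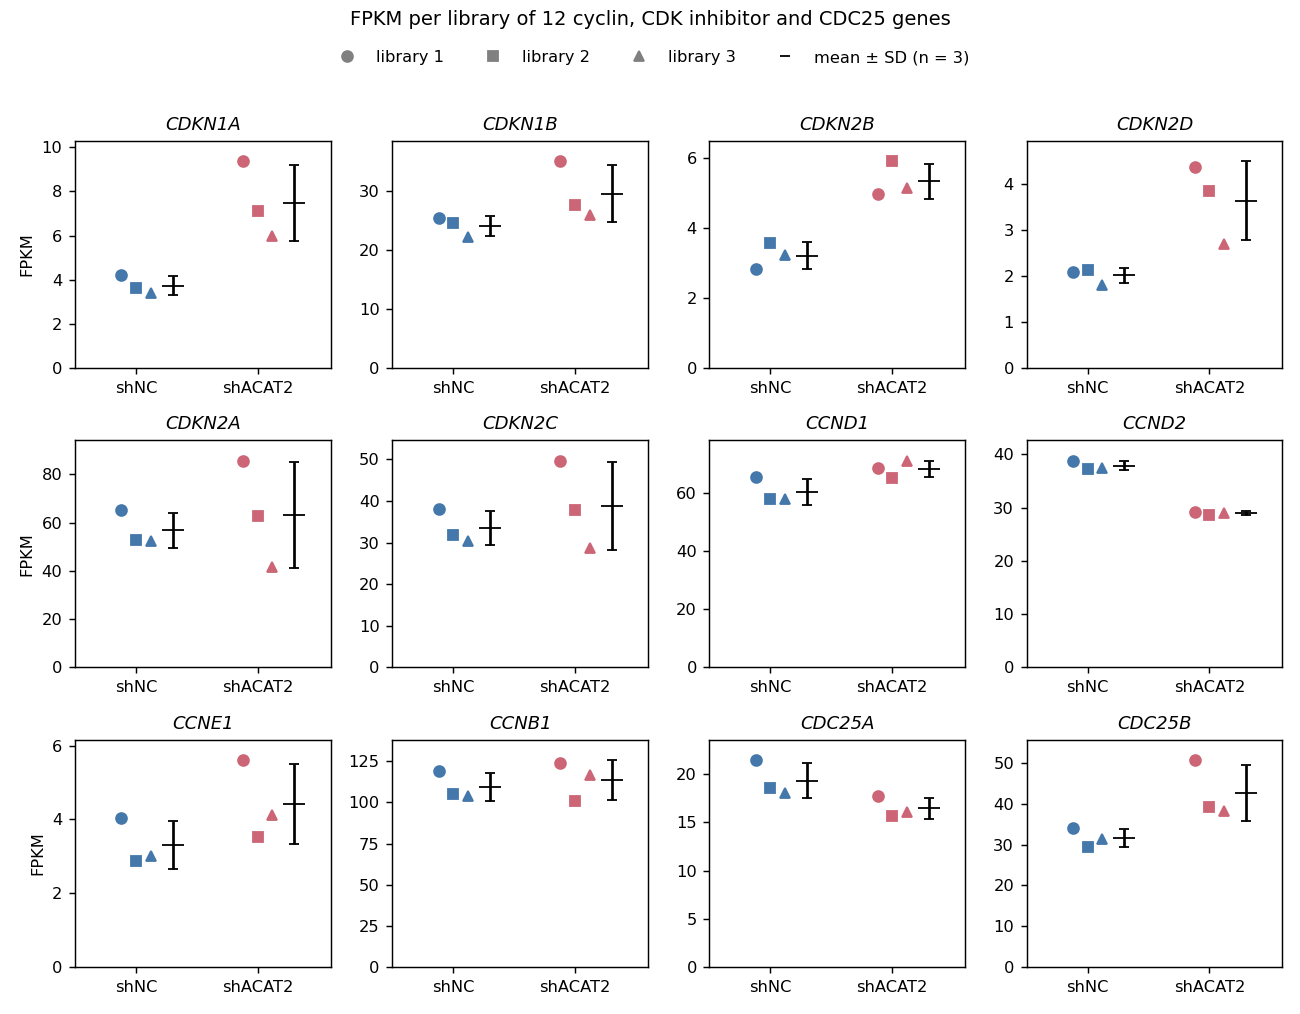
FPKM in each library for 12 genes, with circles, squares and triangles for libraries 1, 2 and 3 of each group and the mean ± SD (n = 3) beside them. CDKN1A, CDKN2B and CDKN2D lie higher in all 3 shACAT2 libraries and CCND2 lower, while CDKN2A in shACAT2 cells ran from 41.5 to 85.6 FPKM around the shNC values.

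The 200 bases before a start site are shown for the 3 inhibitors with the largest log2 fold changes, for CDC25A, which was lower without overlap, and for CCNB2, whose groups overlapped, so that the letters can be set beside the directions. The choice was made after the values were seen. Sequences are those of RefSeq on GRCh38.p14, read 5′ to 3′ along the gene's own strand, with the last base just before the start site. Capitals mark matches to motifs on either strand. The first motif is the GC box bound by SP1 and related factors, GGGCGG. Another is the box bound by the factor NF-Y, CCAAT. The cell cycle element of mitotic genes reads TTTGAA in its plain form. The E2F-like motif found here has the letters TTTGGCGC. A match on the reverse strand is printed as its reverse complement.
CDKN1A promoter, chr6:36678514-36678713, plus strand: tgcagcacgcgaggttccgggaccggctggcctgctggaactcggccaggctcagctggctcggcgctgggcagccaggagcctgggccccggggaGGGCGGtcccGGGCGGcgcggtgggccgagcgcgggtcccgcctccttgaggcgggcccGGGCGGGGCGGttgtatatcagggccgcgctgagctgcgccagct
CDKN2B promoter, chr9:22009306-22009505, minus strand: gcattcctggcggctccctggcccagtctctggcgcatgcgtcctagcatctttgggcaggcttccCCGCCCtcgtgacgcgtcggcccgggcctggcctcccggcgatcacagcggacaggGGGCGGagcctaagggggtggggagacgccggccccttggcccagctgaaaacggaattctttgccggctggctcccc
CDKN2D promoter, chr19:10568980-10569179, minus strand: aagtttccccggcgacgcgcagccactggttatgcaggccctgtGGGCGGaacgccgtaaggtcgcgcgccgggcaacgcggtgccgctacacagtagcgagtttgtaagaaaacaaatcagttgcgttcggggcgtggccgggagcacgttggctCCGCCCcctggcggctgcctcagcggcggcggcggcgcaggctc
CDC25A promoter, chr3:48188418-48188617, minus strand: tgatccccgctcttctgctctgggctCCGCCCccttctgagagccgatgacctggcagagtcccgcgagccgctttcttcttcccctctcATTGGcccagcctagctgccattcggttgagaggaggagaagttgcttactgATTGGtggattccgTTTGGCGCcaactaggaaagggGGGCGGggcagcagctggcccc
CCNB2 promoter, chr15:59104946-59105145, plus strand: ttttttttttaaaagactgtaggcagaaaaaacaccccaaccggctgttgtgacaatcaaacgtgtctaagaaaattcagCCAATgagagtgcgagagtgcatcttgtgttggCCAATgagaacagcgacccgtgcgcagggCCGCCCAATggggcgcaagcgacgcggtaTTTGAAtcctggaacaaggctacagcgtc
The CDKN1A window held the GC box 4 times, at −104, −94, −45 and −40 from the start, with the last 2 overlapping by 1 base, and none of the other motifs. CDKN2B held it at −134 and −78 and CDKN2D at −156 and −44. CCNB2 carried CCAAT at −120, −87 and −54, with a GC box at −58 overlapping the last of them, and TTTGAA at −29, the arrangement known from genes of mitosis. CDC25A carried TTTGGCGC at −44 beside CCAAT at −110 and −58 on the reverse strand and GC boxes at −174 and −22. Both strands were searched in windows of 250 bases before to 50 after each start. In all, 32 of the 39 genes had a promoter in the table, as 49 windows, some of which overlap. CCND1, CCND2, CCNE2, CDK2, CDKN1C, WEE1 and PKMYT1 had none. GGGCGG, a motif added after the values were seen, was in 79.6% of the 49 windows, of 30 genes, against 45% of all 35116 windows. CCAAT was in 42.9% against 34.6%, TTTGAA in 14.3% against 15.2% and TTCGAA in 4.08% against 1.45%. TTTGGCGC and TTTGGCGG were each in 2.04% (CDC25A and CDK8) against 0.652%, and TTTCCCGC in none against 1.63%. The GC box was thus present in called and uncalled genes alike, and a match of letters is not evidence of a bound factor.

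Of the G1 cyclins no D-type gene was called, although the CCND2 values did not overlap between groups. CCND1, which encodes cyclin D1, was at 65.5, 58.0 and 57.8 FPKM in shNC and at 68.8, 65.3 and 70.9 FPKM in shACAT2 libraries, with shACAT2-2 just under shNC-1 (log2 fold change 0.18, 95% interval −0.07 to 0.42, limma adjusted p = 0.363). CCND2 (chr12:4273772-4305350, plus strand), which encodes cyclin D2, was at 38.8, 37.2 and 37.5 FPKM in shNC and at 29.3, 28.6 and 28.99 FPKM in shACAT2 libraries. Relative to their means these were the tightest groups among the 9 genes without overlap, with SDs of 0.851 and 0.321 FPKM. The log2 fold change of CCND2 was −0.37 (95% interval −0.59 to −0.16) and just missed the threshold (limma adjusted p = 0.0626). It was called with upper-quartile scaling (0.0384), scaling to library size (0.0314), limma-voom on the fragments (0.0229) and the replicate block (0.0337). It was not called without the filter (0.111), on the mean of shNC-2 and shNC-3 (0.247) or with any 1 library left out (0.0575 to 0.251). CCND3, for cyclin D3, was at 10.6, 8.97 and 9.16 FPKM in shNC and at 14.3, 11.3 and 8.96 FPKM in shACAT2 libraries, with the lowest of all in shACAT2-3 (limma adjusted p = 0.459). The 3 genes summed to 108 ± 6.12 FPKM in shNC cells, against 109 ± 3.51 FPKM in shACAT2 cells (SD, n = 3). CCND1 made up 56.0% ± 0.897 of that sum in shNC and 62.8% ± 2.06 in shACAT2 cells, and CCND2 35.1% ± 1.18 and 26.6% ± 0.565, both without overlap. Part of CCND1, 10.3% of its length, is shared with LTO1 on the opposite strand, at 3.67 to 4.95 FPKM. CCND2 shares 13.8% with AC008012.1 on its own strand, which was listed at 0 in all libraries.

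The E-type cyclins, partners of CDK2, were low. CCNE1 was at 4.05, 2.88 and 3.00 FPKM in shNC and at 5.60, 3.52 and 4.13 FPKM in shACAT2 libraries, from 119 to 217 fragments. The groups overlapped through shNC-1, and the log2 fold change of 0.32 did not pass the test (95% interval −0.08 to 0.73, limma adjusted p = 0.308). CCNE2 was at 1.96, 2.65 and 2.37 FPKM in shNC and at 1.68, 2.50 and 2.49 FPKM in shACAT2 libraries (log2 fold change −0.05, limma adjusted p = 0.865), and shares 37.1% of its length with INTS8 on the opposite strand, at 7.09 to 9.25 FPKM. The sum of both was 5.64 ± 0.331 FPKM in shNC cells, against 6.64 ± 0.632 FPKM in shACAT2 cells (SD, n = 3), with the lowest shACAT2 library at 6.02 and the highest shNC library at 6.01 FPKM.

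**Figure D3:**
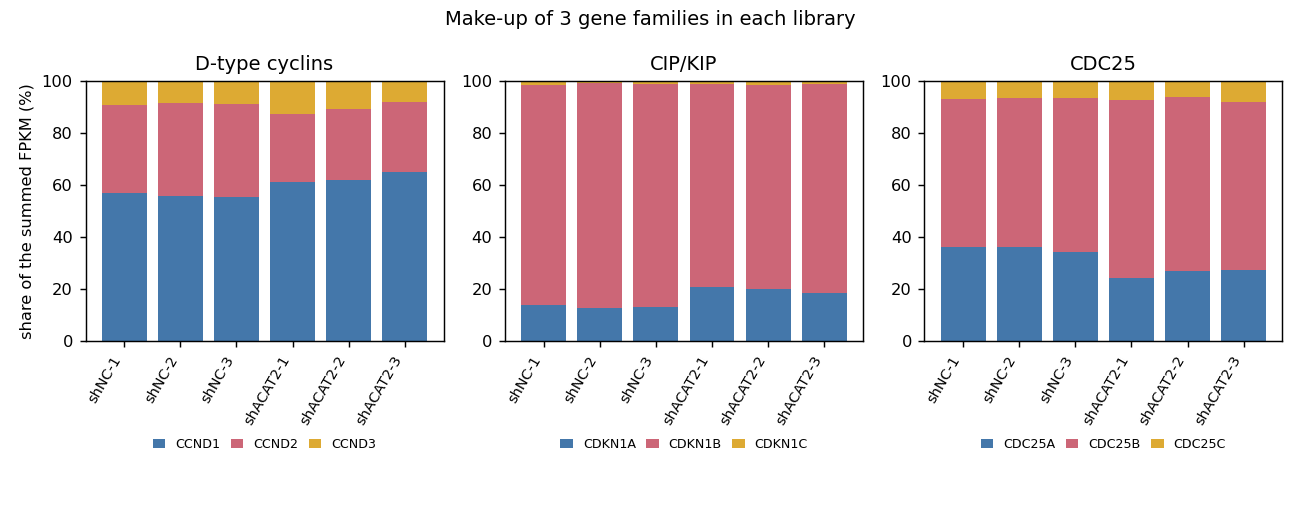
Share of each gene in the summed FPKM of its family, in percent, for the D-type cyclins, the CIP/KIP inhibitors and the CDC25 phosphatases, with 1 bar for each of the 6 libraries. The CCND2 and CDC25A shares are lower, and the CDKN1A share higher, in every shACAT2 library than in every shNC library.

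No cyclin of S phase or mitosis was called. CCNB1, for cyclin B1, was the most abundant of the 39 genes at 119, 105 and 104 FPKM in shNC and 124, 101 and 116 FPKM in shACAT2 libraries, so that the groups overlapped. Its log2 fold change was 0.05, with an interval of −0.24 to 0.35, and took the opposite sign with either rescaling (−0.0068 and −0.00057). CCNB2 was at 31.1, 26.8 and 26.6 FPKM against 36.3, 28.4 and 29.8 FPKM (log2 fold change 0.15, limma adjusted p = 0.533). CCNA2, for cyclin A2, was at 34.1, 37.6 and 39.8 FPKM against 38.5, 41.3 and 43.7 FPKM, higher at each replicate number but overlapping between groups (log2 fold change 0.14, limma adjusted p = 0.472). The germline cyclin CCNA1 had 0 to 4 fragments per library, too few for a fold change. CCNF, for cyclin F, which serves an SCF ubiquitin ligase rather than a CDK, was at 16.5, 13.96 and 13.3 FPKM against 13.5, 12.2 and 11.2 FPKM (log2 fold change −0.23, 95% interval −0.51 to 0.05, limma adjusted p = 0.296).

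None of the 4 cell cycle kinases passed the test, and their groups overlapped. CDK1, the kinase of mitosis, was at 31.4, 39.8 and 38.5 FPKM in shNC and 35.7, 42.1 and 38.5 FPKM in shACAT2 libraries (log2 fold change 0.09, limma adjusted p = 0.738). CDK2 was at 28.4 to 32.1 FPKM against 25.9 to 31.9 FPKM (log2 fold change −0.08, 95% interval −0.36 to 0.20, limma adjusted p = 0.748). CDK4 was at 37.3, 33.0 and 32.9 FPKM against 48.8, 38.7 and 33.4 FPKM, with the separation carried by shACAT2-1 (log2 fold change 0.21, 0.06 without that library, limma adjusted p = 0.468). CDK4 shares 43.2% of its exon length with TSPAN31 on the opposite strand, at 1.21 to 1.65 FPKM. CDK6, the other partner of D-type cyclins, had the largest standard error of the 37 genes (0.28), with 4.99, 7.50 and 7.25 FPKM in shNC and 3.35, 7.29 and 7.30 FPKM in shACAT2 libraries. The library numbered 1 was the low one in both groups, and the log2 fold change of −0.16 (95% interval −0.82 to 0.49) became 0.15 without shACAT2-1. CDK4 made up 81.5% to 88.2% of the sum of both genes in shNC and 82.1% to 93.6% in shACAT2 libraries.

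Among the phosphatases and kinases that act on CDKs, CDC25A and CDC25B had log2 fold changes of opposite sign. CDC25A, which acts on CDK2 at the entry to S phase, was at 21.5, 18.6 and 18.0 FPKM in shNC and 17.7, 15.6 and 16.0 FPKM in shACAT2 libraries. CDC25B, which starts CDK1 activation, was at 34.0, 29.5 and 31.4 FPKM in shNC and 50.7, 39.3 and 38.4 FPKM in shACAT2 libraries. Neither gene overlapped between groups and neither was called, with log2 fold changes of −0.22 (95% interval −0.48 to 0.04, limma adjusted p = 0.281) and 0.42 (95% interval 0.09 to 0.74, limma adjusted p = 0.132, and 0.0448 with the replicate block). Of the CDC25 sum, CDC25A made up 35.4% ± 1.17 in shNC and 26.0% ± 1.71 in shACAT2 cells, and CDC25B 57.9% ± 1.23 and 67.0% ± 1.90 (SD, n = 3). Both shares separated the groups fully, but they depend on each other, as CDC25C made up only 6.69% of the sum in shNC and 7.05% in shACAT2 cells. CDC25C was at 3.42 to 4.05 FPKM against 3.50 to 5.37 FPKM (log2 fold change 0.23, limma adjusted p = 0.383). CDKN3, a phosphatase that takes the activating phosphate from CDK2 and CDK1, was at 17.9, 18.9 and 21.0 FPKM in shNC and 27.0, 23.4 and 26.5 FPKM in shACAT2 libraries. It too did not overlap and was not called (log2 fold change 0.40, 95% interval 0.13 to 0.66, limma adjusted p = 0.0928). The inhibitory kinase WEE1 was at 6.37, 5.50 and 5.82 FPKM against 5.39, 5.51 and 6.13 FPKM (log2 fold change −0.05, 95% interval −0.27 to 0.18, limma adjusted p = 0.811). PKMYT1 was at 21.5, 19.3 and 18.2 FPKM against 23.3, 17.6 and 12.9 FPKM, with shACAT2-1 above and the other two shACAT2 libraries below all controls (limma adjusted p = 0.692). PKMYT1 shares 24.5% of its length with PAQR4, at 10.2 to 18.1 FPKM.

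In the transcription branch, CDK12 (chr17:39461511-39564907, plus strand), which phosphorylates RNA polymerase II during elongation and is needed for long DNA repair genes, had the lowest log2 fold change of the 37 genes. It was at 8.33, 9.05 and 8.76 FPKM in shNC and at 4.92, 6.66 and 6.81 FPKM in shACAT2 libraries, without overlap and lowest in shACAT2-1. The log2 fold change was −0.46 (95% interval −0.76 to −0.16, limma adjusted p = 0.0921, and 0.0443 with the replicate block). Its partner CCNK was at 3.31, 2.84 and 2.97 FPKM against 2.41, 2.70 and 3.05 FPKM, overlapping (log2 fold change −0.12, limma adjusted p = 0.535), but shares 59.5% of its exon length with CCDC85C on the opposite strand, at 5.45 to 8.28 FPKM. The related kinase CDK13 was at 5.40 to 5.65 FPKM against 4.57 to 5.45 FPKM (log2 fold change −0.11). CCNT1 and CDK9, which form the elongation factor P-TEFb, were at 10.7 to 14.1 FPKM against 8.13 to 12.04 FPKM and at 19.2 to 25.2 FPKM against 17.2 to 24.2 FPKM. CCNL1, linked to splicing, was at 4.21 to 5.25 FPKM against 3.43 to 4.73 FPKM. The Mediator kinase CDK8 was at 9.03 to 9.38 FPKM against 7.88 to 10.9 FPKM. CCNH and CDK7, which form the CDK-activating kinase, were at 5.55 to 6.91 FPKM against 6.45 to 7.44 FPKM and at 11.2 to 12.6 FPKM against 12.1 to 12.8 FPKM. CDK5, known for its role in neurons, was at 7.96 to 9.39 FPKM against 7.58 to 10.7 FPKM and shares 11.3% of its length with SLC4A2, at 47.0 to 81.4 FPKM. For the genes of this branch other than CDK12 the groups overlapped, with log2 fold changes between −0.26 (CCNT1) and 0.10 (CCNH). The G-type cyclins, of which CCNG2 is linked to arrest, were at 25.1 to 28.7 FPKM against 25.7 to 34.1 FPKM and at 0.722 to 1.12 FPKM against 0.987 to 1.302 FPKM, also overlapping (log2 fold changes 0.16 and 0.13).

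Across the 37 genes the direction went with gene length. All genes tested were put into 4 bins of about equal size by summed exon length. Of the 9 member genes in the bin of the longest genes (6832 to 44677 bases), 8 had log2 fold changes below 0 and 1 above 0, with a median of −0.163 against −0.0568 for all genes of that bin. The 1 above 0 was CCNG2, which passed the filter through shACAT2 cells alone. Of the 18 genes in the bin from 2074 to 4192 bases, 15 were above 0, with a median of 0.148 against 0.0823. The correlation of log2 fold change with log2 length over the 37 genes was r = −0.606 (Spearman rho −0.612), where over all 13832 genes it was r = −0.00103 (rho −0.0888). These genes share the same 6 libraries and the coefficients are descriptions. The libraries numbered 1 leaned the same way within their own groups: in the bin of 2074 to 4192 bases the members had a median of 0.176 in shNC-1 above the other shNC libraries and 0.286 in shACAT2-1 above the other shACAT2 libraries, and in the bin of the longest genes −0.0548 and −0.196. All genes of these bins leaned likewise, by 0.132 and 0.238 in the former and by −0.0214 and −0.128 in the latter. In the bin of 4193 to 6831 bases, 5 members had log2 fold changes above 0 and 3 below, and the members leaned by 0.182 and 0.284. In the bin of the shortest genes (28 to 2073 bases) the 2 members leaned by −0.047 and 0.229. The lean of the members thus did not fall steadily with length. With the length trend taken out of each library, an alternative added after the data were seen, the median of the 37 genes was 0.0466. For the 36 genes that passed the filter in both groups it was 0.0339. The trend was fitted over all genes tested, so it need not match the relation among the members. Their correlation with length after this step is not given here. CDKN1A kept its call at a log2 fold change of 0.74 (limma adjusted p = 0.0119), CDKN2D gained one at 0.55 (0.0335), CCND2 gained one at −0.37 (0.0451), and CDKN2B lost its own at 0.53 (0.0529).

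The wider cell cycle pathway was described by 5 lists of 136 other genes, of which 125 were tested, with 3 called higher and 3 lower. Of all 13832 genes tested, 1768 were higher and 1485 lower at an unadjusted limma p below 0.05. With the replicate block, 1061 of them were called higher and 666 lower, 12.5% in either direction. Among 29 other cyclins, CDKs and CDK partners tested, 0 were called higher (5 at an unadjusted limma p below 0.05, and 3 with the replicate block) and 2 lower, with a median log2 fold change of 0.0289. The 3 were CCNYL1 (limma adjusted p = 0.0409 with the block), CKS2 (0.0423) and CDK2AP1 (0.0391). CKS1B, the small CDK subunit that helps the SKP2 ligase to degrade p27, was at 62.6, 51.4 and 54.0 FPKM in shNC and at 28.2, 21.7 and 23.4 FPKM in shACAT2 libraries. It was lower in all of them, with a log2 fold change of −1.17 (95% interval −1.49 to −0.85, limma adjusted p = 0.0084), larger in size than that of any of the 37 genes. CDK19, the paralogue of CDK8, was at 2.20, 2.68 and 2.45 FPKM against 0.950, 1.52 and 1.09 FPKM (log2 fold change −0.66, limma adjusted p = 0.0414). Of 25 ubiquitin ligase genes for cyclins and inhibitors 1 was called, SKP1, the linker of SCF ligases, and the list's median was 0.0474. SKP1 was higher, at 10.3 to 11.1 FPKM in shACAT2 against 7.42 to 7.77 FPKM in shNC libraries (log2 fold change 0.43, limma adjusted p = 0.0367).

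Of 21 tested genes in a list of a DNA damage response factor and its target genes, 1 was called. GADD45A, which binds CDK1 and PCNA after DNA damage, was at 13.9, 13.2 and 12.6 FPKM in shNC and at 38.6, 32.6 and 23.1 FPKM in shACAT2 libraries (log2 fold change 1.16, 95% interval 0.73 to 1.59, limma adjusted p = 0.0208). Over the list 8 of 21 log2 fold changes were below 0, and the median was 0.062. With the replicate block 1 was called higher and 1 lower, where 12.5% of all genes were called.

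Of 25 G1/S target genes of E2F, 18 were below 0, with a median of −0.136, and 1 was called in each direction. The replicate block called 1 of them higher and 2 lower, and 12.5% of all genes. At an unadjusted limma p below 0.05, 1 was higher and 5 lower, against 1768 and 1485 of all 13832 genes tested. The groups did not overlap for 1 gene in the higher direction and 8 in the lower, where the share over all genes was 16.2% and 14.5%. PCNA, the sliding clamp of replication, rose from 88.3, 87.5 and 85.3 FPKM in shNC to 155, 133 and 135 FPKM in shACAT2 libraries (log2 fold change 0.68, limma adjusted p = 0.0208). SLBP, which binds histone mRNA, was lower, at 49.5, 41.6 and 47.0 FPKM in shACAT2 against 70.7, 63.6 and 66.4 FPKM in shNC libraries (log2 fold change −0.53, limma adjusted p = 0.0443). Of 25 G2/M target genes 0 were called by limma, with 2 higher and 1 lower at an unadjusted p below 0.05 and, with the replicate block, 2 called in each direction. The list had a median of 0.143, with 17 above 0. The smallest p belonged to BUB1B at 22.8, 28.2 and 28.6 FPKM against 16.5, 23.3 and 19.0 FPKM (log2 fold change −0.43, limma adjusted p = 0.160) and PTTG1 at 42.1, 35.5 and 35.8 FPKM against 58.1, 42.4 and 46.9 FPKM (log2 fold change 0.36, limma adjusted p = 0.196). Over the 5 lists the replicate block called 8 of 125 genes higher and 7 lower, against a share of 12.5% over all genes. The 6 calls of the main fit in these lists came from 125 genes, against a share of 5.1% over all genes. Each was lost in some fit with 1 library left out. CKS1B was lost without shNC-3 (limma adjusted p = 0.0583), and CDK19 without any one of the 6 libraries (up to 0.184). GADD45A and PCNA were lost without any one shNC library or shACAT2-2 (up to 0.110 and 0.136), and SKP1 and SLBP without any library other than shACAT2-1 (up to 0.179 and 0.193).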

How the data were processed

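RNA-seq of 3 shNC and 3 shACAT2 libraries was used. The authors deposited FPKM values for 58735 genes. The submitters' processing notes list HISAT2 2.0.5, featureCounts 1.5.0-p3, DESeq2 1.20.0 and hg38; the strand setting is not given in the sources used here. Gene lengths equalled the summed exons of GENCODE 29 for 58724 genes. Fragments were read back from FPKM and length, and 100% of values came out whole (tolerance 0.05). The library size implied by the FPKM values was not the fragment total. It was below the total in shACAT2-1 (15182806 against 15867286 fragments on genes) and above it in the other libraries. Scaling to the totals instead shifted log2 fold changes by a median of −0.0445. No per-sample column was left unused.

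Values were fitted as log2(FPKM + 1) with limma 3.58.1 (trend, R 4.3.3) over 13832 genes whose mean reached 1 FPKM in 1 group or both. The p-values measure the spread between libraries. Other steps used Python 3.11.15 with numpy 2.4.6, pandas 2.3.3 and matplotlib 3.10.9. The fit was run on simulated data with independent replicates of equal spread and changes larger than that of any member. That setting differs from these libraries, so it is no check of the member calls. Members, lists and motifs were chosen with earlier results of these data known. Results for 1 pathway gene and 1 motif are not reported here. Every member was named, and of each pathway list the called genes, or the 2 with the smallest p where none was called.

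Libraries with the same number deviated together (correlations 0.445, 0.126 and 0.171, all above 0.1), and by that limit the numbers were taken as pairs. Deviations from a group mean sum to 0 within the group, so these correlations depend on each other. Those of shNC-1 with shACAT2-2 and shACAT2-3 were −0.222 and −0.308. The crossed pairs of numbers 2 and 3 reached 0.198 (shNC-2, shACAT2-3) and 0.141 (shNC-3, shACAT2-2), so these data do not set pairs 2 and 3 apart from the swapped ones. Only the libraries numbered 1 stood out as a pair, and calls made with the block alone rest on pairs that were not established. With the replicate numbers as a block, 1727 of 13832 genes were called (12.5%), and of the 37 members 4 higher and 2 lower.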

Additional observations from a re-analysis of the deposited data

How the results depend on the processing

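The main fit called 706 of 13832 genes, against 801 with upper-quartile scaling, 884 with library-size scaling and 1727 with the replicate block. Numbers over all genes for the other settings are not given here, so counts under them cannot be set beside a share of all genes. Called members numbered 2 higher and 0 lower. The higher count was 1 with upper-quartile and with library-size scaling, 0 without the filter and 0 with the mean of shNC-2 and shNC-3 as 1 library, 4 with the replicate block, and 0 to 3 with 1 library left out. The lower count was 1 with either scaling, with limma-voom and with the length trend removed, 2 with the replicate block, and 0 to 0 with 1 library left out. Among 125 other pathway genes the higher count of 3 became 0 without the filter, 8 with the block, 0 with that mean and 0 to 3 with 1 library left out. Their lower count of 3 became 6 with upper-quartile scaling, 1 without the filter, 7 with the block, 6 with limma-voom, 0 with that mean and 0 to 3 with 1 library left out. Without the filter CDKN1A and CDKN2B had adjusted p of 0.117 and 0.106, and in the fit on that mean 0.149 and 0.117, at unchanged direction. ACAT2 ran from −1.07 to −0.94 with 1 library left out. The replicate block turned no direction of the 37 members, lost no call among them and added those of CDKN2D, CDC25B, CCND2 and CDK12. The causes of these changes were not tested, except that averaging and leaving out a library use fewer samples.

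Genes near 0 changed sign. Under upper-quartile scaling, library-size scaling and limma-voom CCNB1 had log2 fold changes of −0.00684, −0.000568 and −0.00109, with −0.0248, −0.019 and −0.02 for CDK5, and −0.0171, −0.0117 and −0.0176 for CDK8. With the length trend removed they were −0.0328 for CCNB1, −0.054 for CDK5, −0.0201 for CDK7, −0.038 for CDK8 and 0.0592 for CDK13, and with the mean of shNC-2 and shNC-3 −0.00359 for CDK5. Leaving out each library in turn gave ranges of −0.0129 to 0.136 for CCNB1, −0.134 to 0.0754 for CCNE2, −0.0176 to 0.149 for CDK1, −0.324 to 0.148 for CDK6, −0.106 to 0.117 for CDK5, −0.0567 to 0.154 for CDK8, −0.196 to 0.0471 for CDK9, −0.145 to 0.369 for CDKN2A, −0.0133 to 0.373 for CDKN2C, −0.0946 to 0.00228 for WEE1 and −0.355 to 0.0476 for PKMYT1. Depth limits CCNA1, CDKN1C and CDKN2D most, which rest on at most 100 fragments per library.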
